A study of Rattus norvegicus with 12 samples.

Results

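Genes of the NRF2 pathway, of glutathione and thioredoxin metabolism and of the enzymes that make or remove reactive oxygen were examined in rat brain tumours grown from 9L gliosarcoma cells. The list holds 38 genes, of which 36 had at least 1 probe on the array (40 of 22523 probes). Pgd and Tkt, enzymes of the pentose phosphate pathway, were not analysed here because no probe carried their names, and Mt1a was matched through its current symbol, Mt1. Of the 36, 33 were bright enough to be tested, and Slc7a11, Srxn1 and Gsta3 were detected on 0 of 12 arrays.

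Tumours of 2 groups were compared. In the 9L.EGFRvIII group (n = 6), 9L cells expressed EGFRvIII, a truncated and constitutively active epidermal growth factor receptor introduced on a plasmid with zeocin selection, and in the 9L.EV group (n = 6) they carried the empty vector. All hosts were syngeneic, untreated female Fischer rats aged 4 to 6 weeks, cells were injected into the cortex, and each tumour was removed 3 weeks later and hybridised to its own Illumina RatRef-12 bead array. The labels name 1 line per group and do not say whether it was a clone, so a difference between the lines and an effect of EGFRvIII cannot be told apart. Tumours were measured as bulk tissue, in which fewer cells of a type and less RNA per cell cannot be told apart.

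NRF2 (gene Nfe2l2) is a transcription factor that Keap1 holds in check by targeting it for degradation. When Keap1 is modified by electrophiles or oxidants, NRF2 enters the nucleus with a small Maf protein, binds antioxidant response elements and induces enzymes that make glutathione, reduce thioredoxin, detoxify quinones and heme, and supply NADPH. Superoxide dismutases turn superoxide into hydrogen peroxide, and catalase, peroxiredoxins and glutathione peroxidases remove it, whereas NADPH oxidases make superoxide on purpose, in the brain mostly in microglia and other phagocytes.

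Between 11182 and 12719 probes were detected per array. Before normalization, the upper quartile of probe intensity was 128.9 to 154.65 on EV arrays and 98.65 to 121 on EGFRvIII arrays, without overlap. The part of this difference in brightness in the changes below was not tested. Of the genes listed as tumour cell markers, Vim, Cd44, Nes and Cdk1 were detected on all arrays, and S100b was detected in 6 EV and 5 EGFRvIII tumours. Of these, Cd44 rose by 1.15 and Nes fell by 0.53 on the log2 scale, and 3 were not called. S100b was highest in EV rat 2 (10.00) and, in the other group, in EGFRvIII rat 1 (8.10), and which cells it came from was not tested. A few tumours stood apart in markers of other cells. The mean log2 level of 6 neuron markers was 9.73 in EV rat 2 and 8.08 in EGFRvIII rat 1, against 4.81 to 7.86 in the other EV and 4.74 to 6.30 in the other EGFRvIII tumours. The mean of 16 macrophage and microglia markers was 6.65 in EV rat 3, against 7.87 to 8.35 in the other EV tumours. Endothelial markers were lower in EGFRvIII tumours (5 of 7 fell, 71.4%, median -1.08), as were fibroblast and meningeal markers (5 of 8 fell, 62.5%, and Dpt rose, median -1.45). Over all genes 10.4% fell and 11.1% rose. Of the markers of other brain and blood cells, 1 of 6 for astrocytes (Gja1) fell and none of 5 for oligodendrocytes and 5 for red blood cells was called. The part of these cells in the changes below was not tested.

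Redox genes that passed the test were mostly higher in EGFRvIII tumours. They were Hmox1, Nqo1, Txnrd1, Taldo1, Prdx1, Gpx3, Cybb and Tfrc, while the glutathione transferase Gsta4 was the 1 gene that fell. A gene was called at an adjusted p of 0.05 (limma, Benjamini-Hochberg over 11695 genes, of which 3312 were probes without a gene name that count singly), and by that rule 8 of 33 tested genes rose (24.2%), 1 fell and 24 were not called. Over all genes tested, 21.5% were called, 11.1% of them rises and 10.4% falls as shares of all genes. The share of the redox genes called in either direction, 27.3%, was thus near that of all genes. The median log2 change (EGFRvIII minus EV) was 0.22 over the 33 and 0.01 over all genes. For Hmox1 and Prdx1 all 6 EGFRvIII tumours lay above all 6 EV tumours, which is 6.06% of the 33, against 11.1% of all genes whose groups did not overlap.

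The balance of rises and falls moved with the scaling of the arrays. Without quantile normalization, 6 redox genes rose and 1 fell when arrays were scaled to the same median over all probes, where 6.57% of all genes rose and 15.4% fell. With the median taken over the kept probes, an alternative chosen after the data were seen, 13 rose and 1 fell, where 18.4% of all genes rose and 8.59% fell. The median change of all genes shifted by -0.09 and 0.10 under these scalings. The calls of Hmox1, Nqo1, Taldo1, Prdx1, Gpx3, Cybb and Gsta4 held under both. Txnrd1 (adjusted p = 0.121) and Tfrc (adjusted p = 0.0707) lost theirs under the first, by limma.

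**Figure D1:**
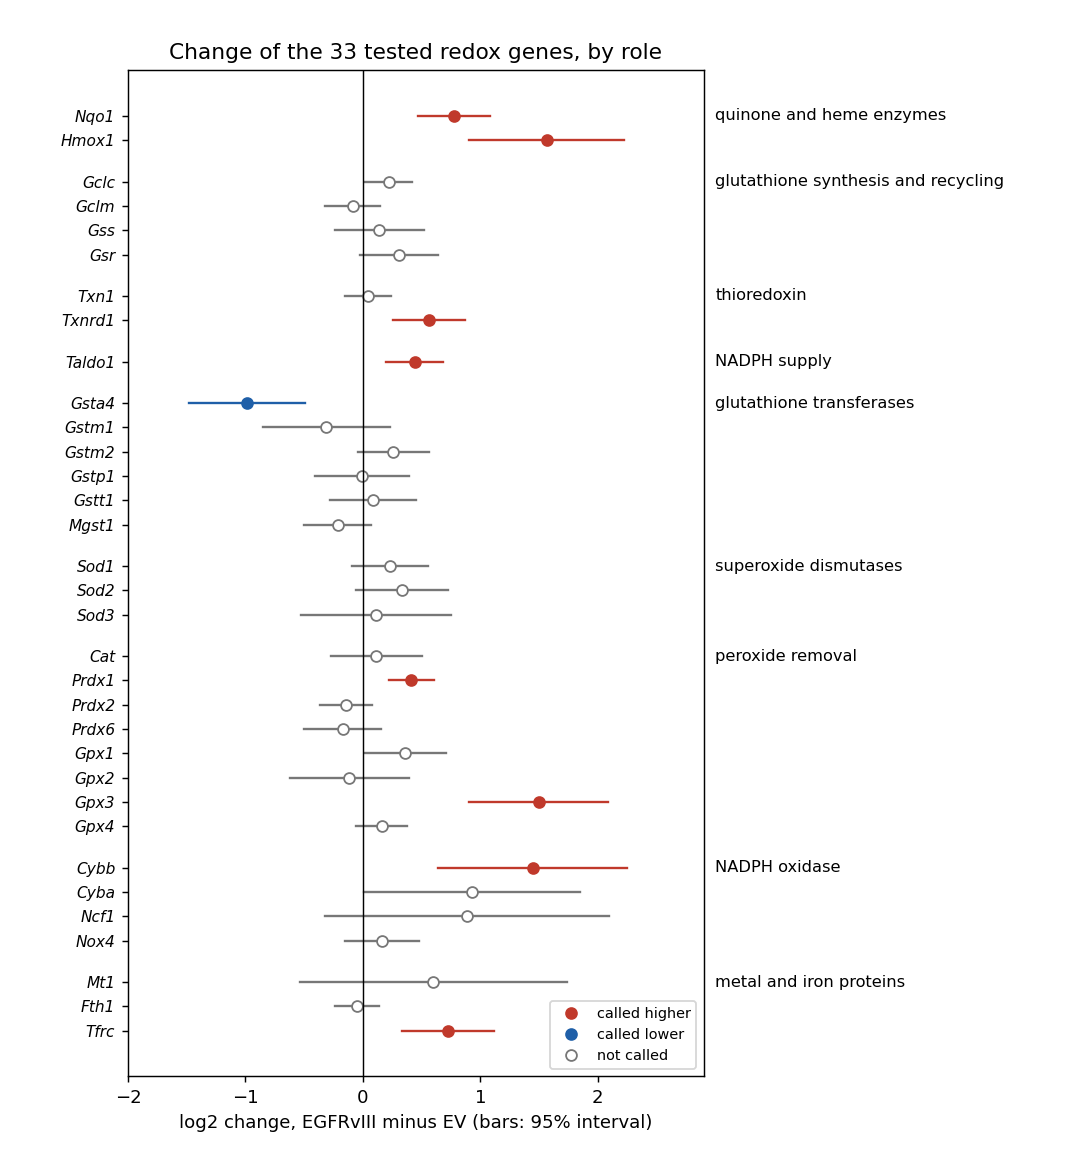
Log2 change (EGFRvIII minus EV, x axis) of the 33 tested redox genes, grouped by role on the y axis, with 95% intervals from limma and filled points for called genes. Rises are spread over several roles, Gsta4 at -0.98 is the single call below 0, and the intervals of Ncf1, Mt1 and Cyba are wide.

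The antioxidant response element has the core TGACNNNGC, and the 250 bases before each transcript start of the RefSeq table (GRCr8) were searched for it on both strands. A start in this table need not be the outer end of the gene: the stretches shown for Gstp1 and Txnrd1 lie within the annotated span of the gene. It was found in 9 of the 32 listed redox genes with an entry in the table (28.1%, Pgd and Tkt being among the 32; Hmox1, Gsr, Gstt1, Prdx6, Sod3 and Fth1 had no entry), against 3027 of 27457 genes in the table and 13.2% of the 6979 tested genes found in it. The full form TGACTCAGC, which also holds the letters TGACTCA of an AP-1 site, was present in 2 of the 32, Prdx1 and Gstp1, and in 0.441% of all genes in the table. These upstream stretches are shown because Prdx1 was called and Gstp1 was not although both carry the same 9 letters, which are in capitals (Prdx1 carries them on the opposite strand, 135 to 127 bases before the start, and Gstp1 on the gene's own strand, 61 to 53 bases before it).
Prdx1, chr5:135383656-135383905, plus strand: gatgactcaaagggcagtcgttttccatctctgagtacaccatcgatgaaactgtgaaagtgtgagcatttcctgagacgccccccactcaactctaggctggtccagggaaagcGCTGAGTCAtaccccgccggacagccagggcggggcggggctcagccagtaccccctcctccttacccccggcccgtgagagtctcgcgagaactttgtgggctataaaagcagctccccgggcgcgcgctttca
Gstp1, chr1:210769706-210769955, minus strand: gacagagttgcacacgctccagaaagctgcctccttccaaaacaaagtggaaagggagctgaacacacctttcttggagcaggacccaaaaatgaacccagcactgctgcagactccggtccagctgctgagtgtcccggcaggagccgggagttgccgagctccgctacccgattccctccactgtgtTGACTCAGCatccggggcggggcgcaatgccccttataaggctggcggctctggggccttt

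The other 7 genes with a match are shown by the match, in capitals, and up to 24 bases on each side. On the gene's own strand a match of the opposite strand reads GCNNNGTCA, as in Txnrd1, Gclm, Gpx2, Sod2 and Ncf1.
Txnrd1, chr7:22755950-22756006, minus strand, 1 of 2 starts: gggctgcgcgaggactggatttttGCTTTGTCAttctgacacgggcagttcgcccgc
Gclm, chr2:213031939-213031995, plus strand: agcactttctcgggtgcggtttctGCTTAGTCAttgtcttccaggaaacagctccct
Gsta3, chr9:31154948-31154988, plus strand, 1 of 2 starts: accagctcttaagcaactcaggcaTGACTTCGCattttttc
Gpx2, chr6:101230034-101230070, minus strand: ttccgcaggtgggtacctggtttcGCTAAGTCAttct
Mt1, chr19:10833044-10833100, minus strand: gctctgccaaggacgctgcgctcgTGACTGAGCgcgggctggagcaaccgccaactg
Sod2, chr1:50050171-50050227, minus strand: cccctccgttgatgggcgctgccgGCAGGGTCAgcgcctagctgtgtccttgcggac
Ncf1, chr12:28121702-28121758, plus strand: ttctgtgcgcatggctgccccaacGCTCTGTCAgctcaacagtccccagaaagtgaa
Of the 9 genes with a match, Prdx1 and Txnrd1 were called higher, 6 were not called and Gsta3 was not tested. The called genes Nqo1, Taldo1, Gpx3, Cybb, Tfrc and Gsta4 had an entry and no match in these 250 bases. Bases further upstream were not searched, so a missing match does not show that an element is missing. A match is a description of these letters and was not tested as a binding site.

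Hmox1, heme oxygenase, which breaks heme down to biliverdin, iron and carbon monoxide, and Nqo1, a quinone reductase, are classical NRF2 targets, and both rose. Hmox1 ranged from 8.55 to 9.07 (median 8.73) in EV tumours and from 9.31 to 11.28 (median 10.25) in EGFRvIII tumours, as log2 intensity. The groups did not overlap, and within the EGFRvIII group rats 4 (11.28), 6 (11.24) and 3 (10.57) were high while rats 1 and 2 lay nearest to the EV tumours. The change was 1.56 ± 0.31 (SE, 2.96-fold, adjusted p = 0.00301 by limma), with an SD of 0.83 in EGFRvIII against 0.21 in EV tumours (n = 6 each). Nqo1 ranged from 8.90 to 9.78 (median 9.03) in EV and from 9.73 to 10.18 (median 9.95) in EGFRvIII tumours. EV rat 6 was the 1 EV tumour within the EGFRvIII range, and 5 of 6 EGFRvIII tumours lay above it. Nqo1 changed by 0.78 ± 0.14 (1.71-fold, adjusted p = 0.00195 by limma).

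Genes of glutathione synthesis and recycling were not called. These were Gclc and Gclm, the catalytic and modifier subunits of the rate-limiting glutamate cysteine ligase, the glutathione synthetase Gss and the glutathione reductase Gsr. Gclc had a mean of 9.89 ± 0.09 in EV and 10.11 ± 0.17 in EGFRvIII tumours (SD, n = 6 each), with 4 EGFRvIII tumours above the highest EV tumour, and changed by 0.22 (95% interval 0.02 to 0.42, adjusted p = 0.109 by limma). It was called without EGFRvIII rat 3 (0.27, adjusted p = 0.0465) and under the scaling over kept probes. The interval was -0.32 to 0.15 for Gclm, -0.24 to 0.52 for Gss and -0.03 to 0.64 for Gsr, whose highest values were in EGFRvIII rats 2 (8.76) and 5 (8.61). Slc7a11, the cystine transporter that feeds glutathione synthesis, was not above background on any array, at 4.24 to 4.35 in EV and 4.29 to 4.58 in EGFRvIII tumours. Its partner chain Slc3a2, which also serves other amino acid transporters, rose by 0.34 ± 0.09 (adjusted p = 0.0132 by limma, and 0.0629 after scaling to the median of all probes).

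In the thioredoxin system the reductase rose. Txnrd1, the cytosolic thioredoxin reductase that uses NADPH, ranged from 6.68 to 7.51 (median 7.21) in EV and from 7.36 to 7.83 (median 7.77) in EGFRvIII tumours. In the EGFRvIII group, 5 tumours lay between 7.72 and 7.83, above every EV tumour, and rat 6 lay alone at 7.36, below EV rat 4. The change was 0.56 ± 0.14 (1.48-fold, adjusted p = 0.0131 by limma). Txn1, thioredoxin itself, had 3 probes. The brightest was the brightest probe of the array on 6 of 12 arrays, so that its range was limited, and it changed by 0.05 ± 0.09. The other Txn1 probes changed by 0.28 ± 0.17 and 0.37 ± 0.13 in a fit over 11862 probes (adjusted p = 0.280 and 0.0559 by limma), where 21.4% of probes were called. None of the 3 was called. Srxn1, sulfiredoxin, which repairs overoxidised peroxiredoxins, was not above background on any array.

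NADPH supply was represented by Taldo1, transaldolase, which works in the non-oxidative branch of the pentose phosphate pathway. Taldo1 ranged from 11.78 to 12.22 (median 12.12) in EV and from 12.17 to 12.77 (median 12.50) in EGFRvIII tumours. EGFRvIII rat 6 was within the EV range, and the other 5 EGFRvIII tumours lay above it. The change was 0.44 ± 0.11 (1.36-fold, adjusted p = 0.0132 by limma), and 0.35 ± 0.11 with an adjusted p of 0.0565 without EV rats 2 and 3. Among 8 other tested genes listed under NADPH supply, 3 rose (37.5%, against 11.1% of all genes) and none fell. The median was 0.05, and 4 of the 8 changes were positive. The rises were those of the cytosolic malic enzyme Me1 (0.71 ± 0.12), which was also listed among the NRF2 targets, the mitochondrial malic enzyme Me2 (1.03 ± 0.16) and the mitochondrial isocitrate dehydrogenase Idh2 (1.01 ± 0.13). Me2 works mainly with NAD rather than NADP, so its rise is not a measure of NADPH supply. All 6 EGFRvIII tumours lay above all 6 EV tumours for each of Me1, Me2 and Idh2, for example 9.84 to 10.67 against 9.14 to 9.54 for Idh2. Over all genes, the groups did not overlap for 11.1%.

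**Figure D2:**
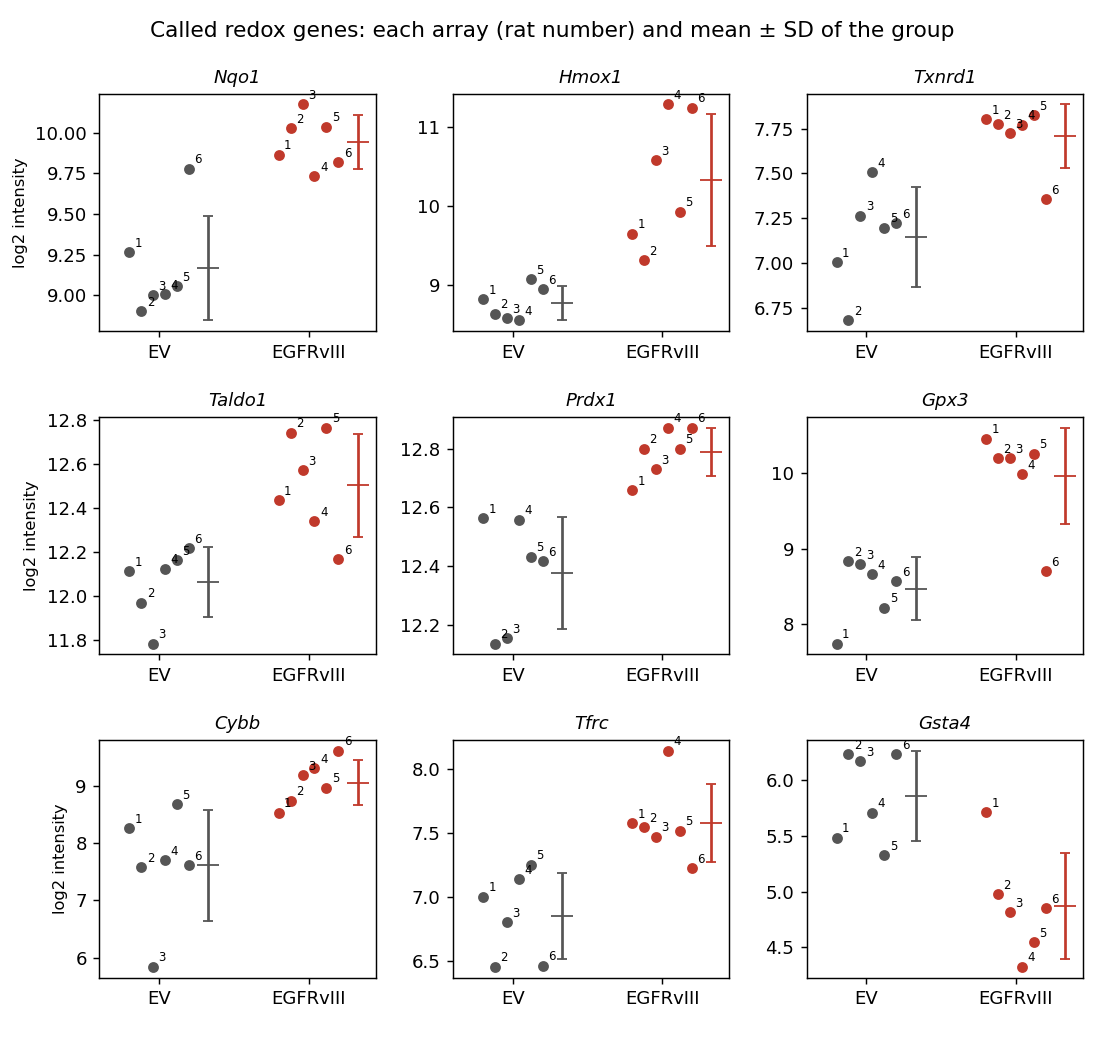
Log2 intensity (y axis) of the 9 called redox genes on each array, numbered by rat, with the mean and SD of each group of 6. EGFRvIII tumours do not overlap EV tumours for Hmox1 and Prdx1, and EGFRvIII rat 6 lies low for Gpx3 (8.71), Txnrd1 (7.36) and Taldo1 (12.17).

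Glutathione transferases couple glutathione to electrophiles. Of 6 tested, none rose, Gsta4 fell and 5 were not called, beside 11.1% rises and 10.4% falls over all genes, with a median change of -0.11, which became 0.09 when arrays were scaled over the kept probes. Gsta4, which conjugates the lipid peroxidation product 4-hydroxynonenal, ranged from 5.32 to 6.23 (median 5.94) in EV and from 4.33 to 5.71 (median 4.83) in EGFRvIII tumours. EGFRvIII rat 1 at 5.71 was within the EV range and the other 5 lay below it. Gsta4 fell by 0.98 ± 0.23 on the log2 scale (adjusted p = 0.00824 by limma), and it was detected in 6 EV and 4 EGFRvIII tumours, so the dimmest values are near background. The size depended on how dim values were treated: the change was -2.18 in the authors' deposited log2 values and -0.53 with an offset of 50, and the call held in both.

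Among the transferases not called, Gstm1 changed by -0.31 (interval -0.85 to 0.23), with EV rat 2 alone at 9.33 and the other EV tumours at 7.90 to 8.49; without EV rat 2 it was -0.10 (adjusted p = 0.767 by limma). The intervals of the change were -0.04 to 0.56 for Gstm2, -0.28 to 0.45 for Gstt1 and -0.50 to 0.07 for the membrane-bound Mgst1. Gstp1 had 3 probes. Its brightest changed by -0.01 (interval -0.41 to 0.39), a dimmer one by 0.42 ± 0.21 (adjusted p = 0.167 by limma over probes), and the other was not above background on any array. Whether probes of this family also bind close paralogues was not tested. Of 19 other tested transferase and glutathione genes, 3 rose (15.8%, against 11.1% of all genes) and none fell. Their median change was 0.09, and -0.02 after scaling to the median of all probes. Besides Slc3a2 the rises were those of Gsto1 (0.29, adjusted p = 0.0491 by limma) and Hagh (0.35, adjusted p = 0.0481), each of which kept its call under 8 of 27 alternatives. Both lost it on leaving out any single tumour among EV rats 2 to 5 or EGFRvIII rats 1 to 5. In addition, Gsto1 lost its call without EV rat 1, and Hagh without EGFRvIII rat 6.

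Peroxide removal was split between Gpx3 and Prdx1, which rose (25%, against 11.1% of all genes), and 6 genes that were not called. The median change was 0.14 over the 8. Gpx3, a secreted glutathione peroxidase, ranged from 7.75 to 8.84 (median 8.62) in EV and from 8.71 to 10.46 (median 10.20) in EGFRvIII tumours. EGFRvIII rat 6 at 8.71 lay within the EV range, and the other 5 EGFRvIII tumours lay at 9.99 or above. The change was 1.50 ± 0.28 (2.82-fold, adjusted p = 0.00194 by limma), and 1.75 without EGFRvIII rat 6, the largest value over the arrays left out in turn. Prdx1, a cytosolic peroxiredoxin whose upstream sequence is given above, ranged from 12.14 to 12.56 (median 12.42) in EV and from 12.66 to 12.87 (median 12.80) in EGFRvIII tumours. The groups did not overlap, and the change was small, 0.41 ± 0.09 (1.33-fold, adjusted p = 0.00534 by limma). It was 0.30 ± 0.07 without EV rats 2 and 3, which were the lowest EV tumours (adjusted p = 0.0138).

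The other genes of peroxide removal were not called. For Gpx1, the main cytosolic glutathione peroxidase, the change was 0.36 (interval 0.02 to 0.70, adjusted p = 0.124 by limma), with EV rat 3 alone at 9.93 and the other EV tumours at 10.48 to 10.96; without EV rat 3 it was 0.21. Gpx4, which reduces lipid peroxides in membranes, changed by 0.16 (-0.06 to 0.38), catalase (Cat) by 0.12 (-0.27 to 0.50), Prdx2 by -0.14 (-0.36 to 0.08) and Prdx6 by -0.17 (-0.50 to 0.16). Gpx2 changed by -0.12 (-0.62 to 0.39), with EV rat 2 alone at 6.47 and the other EV tumours at 4.91 to 5.48, and by 0.10 without EV rat 2. None of the superoxide dismutases was called. The cytosolic Sod1 changed by 0.23, and by 0.11 without EV rat 3. The interval of the change was -0.09 to 0.55 for Sod1, -0.06 to 0.73 for the mitochondrial Sod2 and -0.52 to 0.75 for the extracellular Sod3.

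Of the 4 NADPH oxidase genes, Cybb rose (25%, against 11.1% of all genes) and the other 3 were not called. The pooled SD within groups was 1.13 for Ncf1, 0.86 for Cyba and 0.74 for Cybb, among the 4 highest of the 33 genes, and 0.27 for Nox4. The phagocyte enzyme consists of the membrane subunits Cybb and Cyba and of cytosolic organisers that include Ncf1, whereas Nox4 is an isoform of other cells. Cybb ranged from 5.84 to 8.69 (median 7.66) in EV and from 8.53 to 9.62 (median 9.08) in EGFRvIII tumours. EV rat 5 (8.69) was within the EGFRvIII range and EV rat 3 (5.84) was far below the rest. Cybb rose by 1.44 ± 0.37 (2.72-fold, adjusted p = 0.0144 by limma), and by 1.09 ± 0.24 without EV rat 3 (adjusted p = 0.00669) and 0.99 ± 0.24 without EV rats 2 and 3 (adjusted p = 0.0159).

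Cyba and Ncf1 were not called. Cyba lay at 8.74 in EV rat 3, at 10.51 to 11.83 in the other EV tumours and at 11.43 to 12.18 in EGFRvIII tumours, so that 3 EGFRvIII tumours lay above every EV tumour. Its change was 0.93 ± 0.43 (adjusted p = 0.140 by limma), and 0.50 ± 0.23 without EV rat 3 (adjusted p = 0.159). Ncf1 lay at 6.38 in EV rat 3, at 9.19 to 10.74 in the other EV and at 9.40 to 11.02 in EGFRvIII tumours. Its change was 0.89 ± 0.56, and 0.32 ± 0.31 without EV rat 3 (adjusted p = 0.290 and 0.513 by limma). Nox4 changed by 0.16 (interval -0.15 to 0.48) near background, being detected in 4 EV and 5 EGFRvIII tumours. Among 4 other tested oxidase genes 1 rose (25%, against 11.1% of all genes). It was Ncf4, another cytosolic subunit of phagocytes, with a change of 1.23 ± 0.27 (2.35-fold, adjusted p = 0.00613 by limma). Its values of 7.14 to 8.03 in EGFRvIII tumours all lay above the 5.19 to 6.86 of EV tumours, and the change was 0.83 ± 0.18 without EV rats 2 and 3.

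Markers of macrophages and microglia were called in part. Of 20 listed markers 16 were tested, of which 5 rose (31.2%, against 11.1% of all genes), none fell and 11 were not called, with a median change of 0.67. Of the 16 changes, 14 were positive. Those not called included Laptm5 (1.21), Tyrobp (1.06), Itgam (0.87), Aif1 (0.32), C1qa (0.45), Cx3cr1 (-0.19) and P2ry12 (-0.13). Mrc1 (3.57 ± 0.45), Trem2 (2.67 ± 0.21), Fcgr2b (2.12 ± 0.44) and Spi1 (1.08 ± 0.29) were among the rises. Their mean level lay between 6.65 and 8.35 in EV and between 8.25 and 9.41 in EGFRvIII tumours. EV rat 3 was the lowest of all tumours and EGFRvIII rat 6 (9.41) the highest in this mean, and they were also the lowest and the highest in Cybb, Cyba and Ncf1. Hmox1 was high in EGFRvIII rats 6, 4 and 3, where the marker mean was 9.41, 9.15 and 9.01. It was lower in rat 1 (9.65), where that mean was 8.96, than in rat 5 (9.92), where it was 8.35. Of 6 neutrophil markers 2 were tested: S100a8 rose by 1.66 ± 0.50 and Mpo changed by 0.14 (adjusted p = 0.0298 and 0.355 by limma). Of the others, S100a9, Elane and Cxcr2 were detected on no array, and Csf3r was detected in 4 EGFRvIII tumours alone. The part of these cells in the changes of Cybb, Ncf4 and Hmox1 was not tested.

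**Figure D3:**
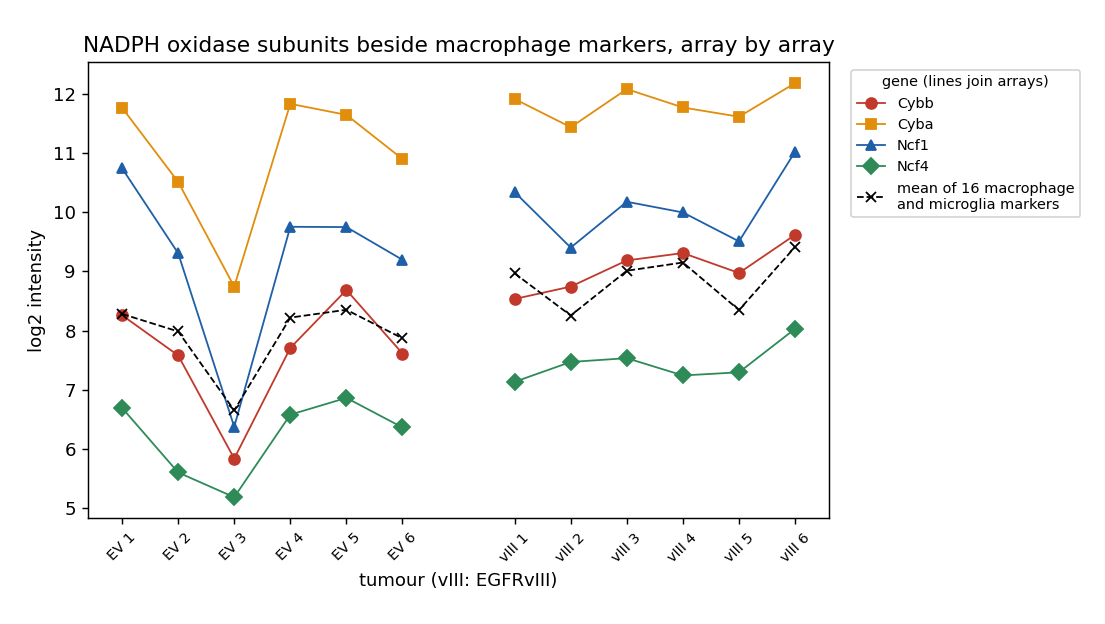
Log2 intensity (y axis) of Cybb, Cyba, Ncf1 and Ncf4 and the mean of 16 macrophage and microglia markers on each of 12 arrays (x axis). Levels of different genes come from different probes and are not comparable, and the picture shows that all 5 lines dip at EV rat 3.

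Side by side, the 4 roles gave median changes of -0.11 for the 6 tested glutathione transferases, 0.44 for NADPH supply (Taldo1 alone), 0.14 for the 8 genes of peroxide removal and 0.91 for the 4 oxidase genes, against 0.01 for all genes. Positive changes were seen for 2 of 6 transferases, 5 of 8 genes of peroxide removal and 4 of 4 oxidase genes. The oxidase values depended on EV rat 3. Without it the changes were 1.09 for Cybb, 0.50 for Cyba, 0.32 for Ncf1 and 0.08 for Nox4. Without EV rats 2 and 3 the change of Nox4 was -0.01. The transferase median was the 1 of these that changed sign under another scaling, and whether the roles differ from each other was not tested.

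Metal and iron proteins gave 1 call in 3, a rise (33.3%, against 11.1% of all genes). Tfrc, the transferrin receptor that brings iron into cells, ranged from 6.45 to 7.25 (median 6.90) in EV and from 7.22 to 8.14 (median 7.53) in EGFRvIII tumours. EV rat 5 (7.25) and EGFRvIII rat 6 (7.22) were the only tumours that crossed, and EGFRvIII rat 4 was highest. The change was 0.73 ± 0.18 (1.66-fold, adjusted p = 0.0119 by limma). Fth1, the ferritin heavy chain and an NRF2 target, changed by -0.05 (interval -0.23 to 0.14). The light chain Ftl1 rose by 0.97 ± 0.20 (1.95-fold, adjusted p = 0.00438 by limma), with 11.91 to 12.70 in EGFRvIII and 10.42 to 11.70 in EV tumours, without overlap. Metallothionein Mt1, which binds zinc and copper, had a pooled SD within groups of 1.06, second to Ncf1 (1.13) among the 33 genes. It ranged from 9.66 to 12.55 (median 10.33) in EV and from 9.25 to 12.20 (median 11.40) in EGFRvIII tumours. EV rat 2 held the highest value and EGFRvIII rat 6 the lowest, and the change was 0.60 (interval -0.54 to 1.74). It was 0.99 on leaving out EV rat 2 alone or EGFRvIII rat 6 alone, and was not called in either case.

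**Figure D4:**
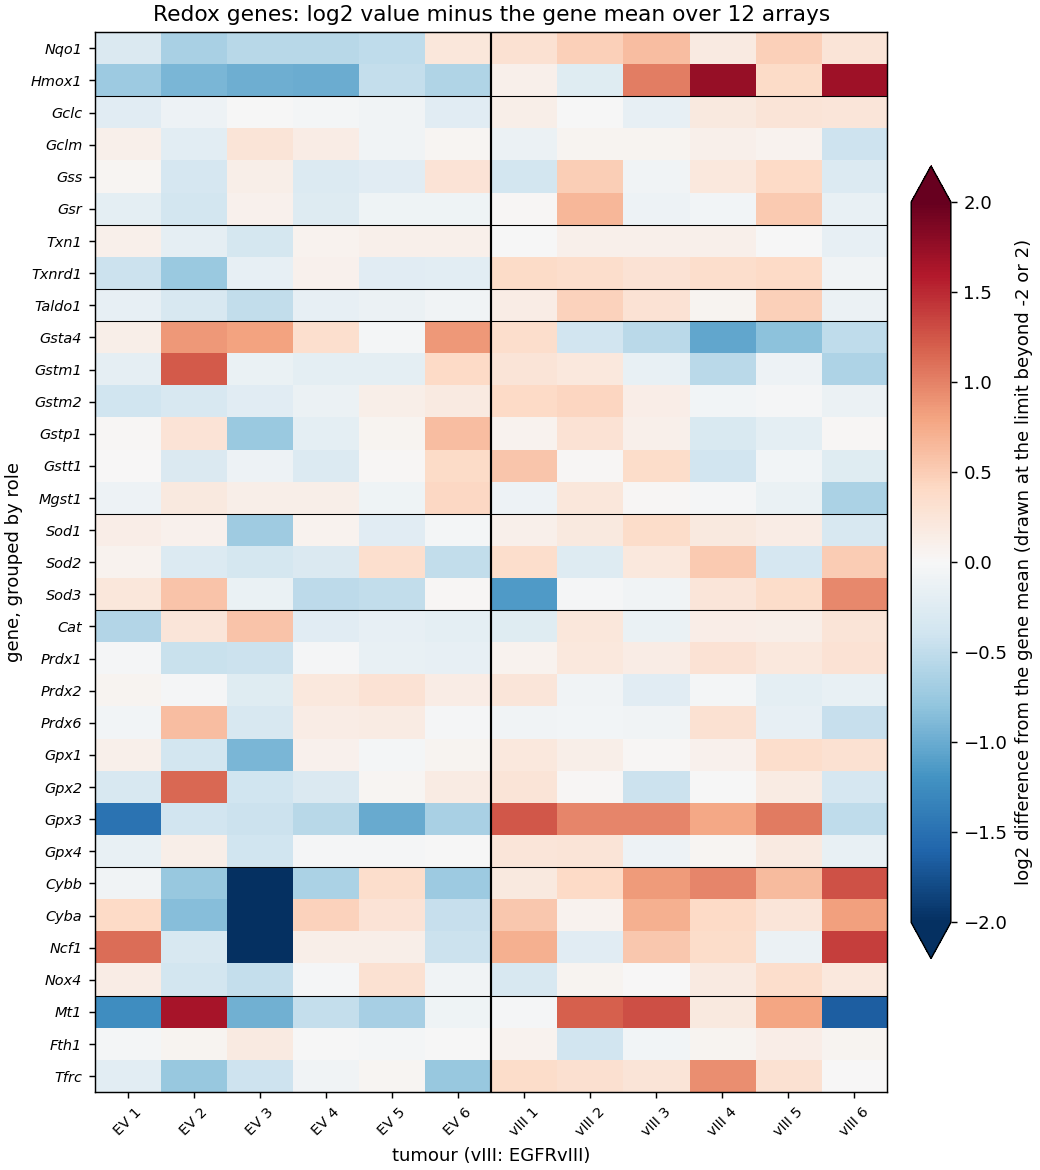
Log2 value minus the gene mean over 12 arrays for the 33 tested redox genes (rows, grouped by role) on each array (columns), with colour limits of -2 and 2. EV rat 3 is low in Cybb, Cyba and Ncf1, EV rat 2 is high in Gstm1, Gpx2 and Mt1, and EGFRvIII rats 3, 4 and 6 are high in Hmox1.

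Beyond the 38 genes, 113 further genes of the same pathways were listed, of which 79 were tested. Of these, 15 rose (19.0%), 8 fell (10.1%) and 56 were not called, with a median change of 0.03, against 11.1% and 10.4% of all genes. Of 20 other NRF2 targets, 6 rose and 1 fell (median 0.10, and -0.05 after scaling to the median of all probes), Cbr3 among them keeping its call under 15 of 27 alternatives. The largest rise was that of Akr1b8, an aldo-keto reductase, from 7.62 to 8.54 in EV tumours to 9.35 to 10.07 in EGFRvIII tumours, without overlap (1.73 ± 0.16, 3.32-fold, adjusted p = 1.13e-05 by limma). The biliverdin reductases Blvra (0.71 ± 0.20) and Blvrb (0.72 ± 0.18), which act downstream of heme oxygenase, both rose. Blvra kept its call under 22 of 27 alternatives and lost it without EGFRvIII rat 2 or rat 5 (highest adjusted p 0.0548 by limma), without EV rats 2 and 3 together, and under 2 other settings, and Blvrb had an adjusted p of 0.0501 after scaling to the median of all probes.

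Of 8 tested regulators of the pathway, none rose and 1 fell (12.5%), with a median change of -0.15. The share that fell was near the 10.4% of all genes that fell. Over all genes 11.1% rose, and the groups did not overlap for 11.1%. The regulator that fell was Keap1, the inhibitor of NRF2, which was singled out after its values had been seen. It ranged from 8.58 to 8.87 in EV and from 8.01 to 8.53 in EGFRvIII tumours, without overlap, and fell by 0.45 ± 0.11 on the log2 scale (adjusted p = 0.00836 by limma). Nfe2l2, likewise, is given because it encodes NRF2: it changed by -0.16 ± 0.15 (adjusted p = 0.491 by limma), and the arrays measure its transcript, not the protein or its location.

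Further thioredoxin and peroxide genes went both ways, with 2 rises (16.7%) and 6 falls (50%) among 12 tested (median -0.27). Over all genes 11.1% rose and 10.4% fell. Among the falls, Txnrd2 kept its call under 17 and Gpx8 under 19 of 27 alternatives. Txn2, mitochondrial thioredoxin, rose by 0.73 ± 0.14 (adjusted p = 0.00286 by limma). Txnip, which binds and inhibits thioredoxin, ranged from 11.39 to 12.78 in EV and from 10.33 to 11.39 in EGFRvIII tumours, with EGFRvIII rat 6 and EV rat 1 almost level, and fell by 1.35 ± 0.24 on the log2 scale (2.55-fold lower, adjusted p = 0.00149 by limma). The stress proteins Sesn1 (-1.33 ± 0.15) and Sesn3 (-0.69 ± 0.17) fell. For Sesn1 the groups did not overlap, with 8.54 to 9.47 in EV and 7.30 to 7.73 in EGFRvIII tumours.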

How the data were processed

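Each of 12 tumours gave about 100 ng of RNA for its own bead array. The authors' deposited table holds probe intensity, per the file headers; some values are negative, as after background subtraction. Beside it the authors deposited a detection score, a fraction from 0 to 1 taken here as 1 minus the detection p-value. A further table deposited by the authors holds values that look like quantile-normalized log2 levels and served as an alternative. The submitters' processing notes name Partek; no source used here gives its settings.

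Intensities went through neqc (limma 3.58.1, R 4.3.3, offset 16). A probe was kept if its detection p was below 0.05 in 6 or more tumours, and the brightest kept probe stood for a gene. Groups were compared by limma's moderated test (trended variance, two-sided), and p-values were adjusted over 11695 genes. The annotation gave 13793 of 22523 probes a single symbol, updated through gene IDs; the other 8730 stayed unnamed, and 3312 of those were tested singly. Values are mean ± SD (n = 6) and changes ± SE. The number of arrays limits the precision. The procedure was tested on simulated data. Rat numbers were not used as pairs in the main fit, and deviations of tumours with equal numbers correlated at -0.34 to -0.06. These correlations cannot show whether tumours were handled in pairs. The alternatives changed scaling, offset, filter, probe choice, variance model and the arrays included.

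The redox genes and all lists were chosen with earlier results of these data known. All 38 redox genes are named, as are the 12 called genes with the largest change among the other pathway genes and up to 4 called markers per list. Slc3a2, Gsto1, Hagh, Cbr3, Txnrd2, Gpx8, Keap1, Nfe2l2 and the uncalled markers were named after their values were seen.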

Additional observations from a re-analysis of the deposited data

Results flagged for a closer look

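In 66 groups of 6 arrays (33 genes, 2 groups each), 5 had 1 tumour far from the others by Dixon's test; chance flags about 1 in 20 groups. Gpx3 was lowest in EGFRvIII rat 6 at 8.71, with the next tumour at 9.99. Txnrd1 was lowest in the same tumour at 7.36, with the next at 7.72. Ncf1 was lowest in EV rat 3 at 6.38, the tumour with the least macrophage marker signal, with the next at 9.19. Gpx2 was highest in EV rat 2 at 6.47, the tumour with the most neuron marker signal, with the next at 5.48. Fth1 was lowest in EGFRvIII rat 2 at 12.74, with the next at 13.07.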

How the results depend on the processing

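Over 27 alternatives, the change of each tested redox gene kept its side of the threshold in 879 of 889 comparisons, and no called change turned its sign. Among changes that were not called, those of Fth1, Gpx2, Gstp1, Gstt1, Sod3 and Txn1 turned sign when 1 array was left out. The number of redox genes that rose was 13 with arrays scaled to the median of the kept probes, an alternative chosen after seeing the data (Gclc, Gpx1, Gpx4, Sod1 and Txn1 were added), and 8 or 9 with any one array left out. The number that fell was 0 when probes had to be detected on all 12 arrays, which removes Gsta4 from the test, and 2 with array weights, which added Prdx2 (adjusted p = 0.0444 by limma). With the rat number as a replicate block, 8 redox genes rose, 1 fell and 1817 genes were called in all, against 2519 without it. Whether equal numbers mark a pair is not known, so these are values only. Without EV rats 2 and 3 together, 7 rose and 1 fell, and without EV rat 2 and EGFRvIII rat 1 together the 9 calls were kept. Leaving out each array gave 1959 to 2504 called genes in all, and 11 to 16 rises and 6 to 8 falls among the other pathway genes. Of all calls 51.6% were rises, 29.9% with scaling to the median of all probes and 68.2% with the median of kept probes. Signal over background limits Slc7a11, Srxn1 and Gsta3, which were detected on no array. With no filter on dim probes they changed by 0.14 (interval 0.04 to 0.24, adjusted p = 0.0687 by limma), -0.02 and 0.06, near background, and none was called.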

Other observations

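EGFRvIII rat 6 was the lowest tumour of its group for 14 of 33 tested redox genes, among them Gpx3, Txnrd1, Taldo1, Tfrc, Mt1 and Gclm, and the highest for 5, Cybb, Cyba, Ncf1, Sod3 and Cat. In the EV group, rat 3 was lowest for 13 of the 33, including Cybb, Cyba, Ncf1, Prdx2, Sod1 and Taldo1, and highest for 5, among them Cat, Gclc and Gclm. EV rat 6 was highest in its group for 8, including Nqo1, Gss and the transferases Gsta4, Gstm2, Gstp1, Gstt1 and Mgst1. The pooled SD within groups had a median of 0.30 over the redox genes and 0.25 over all genes tested. It was smallest for Gclc (0.14), Fth1 (0.14) and Prdx1 (0.15).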
